A study of Mus musculus with 16 samples.

Results

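The heat shock chaperone genes are 10 genes chosen by symbol: Hspa1a, Hspa1b, Hsph1, Dnajb1, Hspa8, Hsp90aa1, Hsp90ab1, Hspb1, Hspd1 and Hspe1. They were looked up by Ensembl identifier among the 55421 genes listed for each library, all 10 were found, and all 10 had enough counts to enter every fit. The lowest count of any of them in any library was 699 and the highest 78058. They were chosen by name, with earlier results of these data known. On mouse build GRCm38 (GENCODE M21), Hspa1a (ENSMUSG00000091971) lies on chromosome 17 from 34969190 to 34972156, Hspa1b (ENSMUSG00000090877) on 17 from 34956436 to 34959238, Hsp90ab1 (ENSMUSG00000023944) on 17 from 45567775 to 45573271, Hsph1 (ENSMUSG00000029657) on 5 from 149614287 to 149636376 and Hsp90aa1 (ENSMUSG00000021270) on 12 from 110690605 to 110702728, all on the minus strand. Dnajb1 (ENSMUSG00000005483) lies on chromosome 8 from 83608193 to 83612653, Hspa8 (ENSMUSG00000015656) on 9 from 40800984 to 40810087 and Hspb1 (ENSMUSG00000004951) on 5 from 135887919 to 135889563, all on the plus strand. Hspd1 (ENSMUSG00000025980, minus strand, 55077835 to 55088243) and Hspe1 (ENSMUSG00000073676, plus strand, 55088132 to 55091307) overlap at their first exons on chromosome 1.

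RNA sequencing was done on 16 mouse libraries, 2 in each of 8 groups set by tissue (white adipose tissue, WAT, or liver), Gpr132 genotype and treatment, in C57BL/6 mice fed a high-fat diet. Gpr132 encodes a G protein-coupled receptor of macrophages, and NOX_6_18 is an antagonist of it. In each tissue the groups were CKO mice (Lyz2_cre+/_GPR132fl/fl) on NOX_6_18, CKO mice on vehicle, GPR132fl/fl mice (fl/fl below) on NOX_6_18, and fl/fl mice on vehicle. Both genotypes carried floxed Gpr132, and the Cre of the CKO is driven by the myeloid gene Lyz2, so cells outside that lineage keep the receptor. Age, dose and duration were not in the labels. The labels call the RNA macrophage RNA, but they also say that the tissue itself was frozen, and nothing in them ties the 2 libraries of a group to different mice. Every p-value below therefore reflects the scatter between libraries alone, and that scatter may be technical.

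Heat shock proteins are chaperones that bind unfolded or partly folded proteins and let them fold. HSP70 proteins take up clients delivered by J-domain partners and release them with the help of nucleotide exchange factors such as HSP110. HSP90 proteins finish the folding of kinases and steroid hormone receptors, small heat shock proteins hold clients without ATP, and HSP60 with HSP10 forms a folding chamber in mitochondria. Heat, oxidants and other protein-damaging stress raise many of these genes through heat shock factor 1 (HSF1), which binds repeats of the letters GAA and TTC, the heat shock element, near the start of its targets. In macrophages and hepatocytes the same chaperones are also needed without stress, the constitutive Hspa8 and Hsp90ab1 above all.

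Promoter sequences, 250 bases before and 50 bases after the annotated start, were available from RefSeq (GRCm38.p6) for 7 of the 10 genes, Hspa8, Hsp90aa1 and Hsp90ab1 being the other 3. The set printed here shows the members whose counts moved oppositely in the 2 tissues (Hspa1a and Hspa1b), the member with the highest fold change in liver (Hsph1), and 2 that did not pass the test in either tissue (Hspb1 and Hspe1). Capitals mark the searched heat shock element letters, GAANNTTC (2 units) and the same letters with 1 more unit, NNGAA after them or TTCNN before them (3 units), on both strands. Each 3-unit form holds the 2-unit form.
Hspa1a, chr17:34972107-34972406, minus strand: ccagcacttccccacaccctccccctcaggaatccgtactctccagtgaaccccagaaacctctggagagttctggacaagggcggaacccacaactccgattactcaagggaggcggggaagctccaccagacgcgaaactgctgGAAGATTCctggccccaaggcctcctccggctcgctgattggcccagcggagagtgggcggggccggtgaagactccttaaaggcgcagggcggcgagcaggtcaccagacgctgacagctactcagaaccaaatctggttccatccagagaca
Hspa1b, chr17:34959189-34959488, minus strand: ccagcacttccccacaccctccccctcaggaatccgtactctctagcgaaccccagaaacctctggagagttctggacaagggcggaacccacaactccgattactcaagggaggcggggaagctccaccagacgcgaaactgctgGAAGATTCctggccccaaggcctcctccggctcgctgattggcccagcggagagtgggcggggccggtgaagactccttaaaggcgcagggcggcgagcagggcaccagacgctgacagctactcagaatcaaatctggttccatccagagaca
Hsph1 (start site 1), chr5:149636287-149636586, minus strand: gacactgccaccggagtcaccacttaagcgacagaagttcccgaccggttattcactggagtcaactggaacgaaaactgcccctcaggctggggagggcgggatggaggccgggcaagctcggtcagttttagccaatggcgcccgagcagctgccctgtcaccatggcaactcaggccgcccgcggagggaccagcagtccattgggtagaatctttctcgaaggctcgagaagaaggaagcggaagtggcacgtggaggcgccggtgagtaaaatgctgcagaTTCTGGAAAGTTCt
Hspb1, chr5:135887669-135887968, plus strand: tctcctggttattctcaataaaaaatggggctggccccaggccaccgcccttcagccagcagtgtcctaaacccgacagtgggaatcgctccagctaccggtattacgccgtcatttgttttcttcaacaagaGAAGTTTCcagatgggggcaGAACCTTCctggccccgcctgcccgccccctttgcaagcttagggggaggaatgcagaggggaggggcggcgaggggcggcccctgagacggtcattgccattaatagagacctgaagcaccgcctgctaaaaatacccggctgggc
Hspe1, chr1:55087898-55088197, plus strand: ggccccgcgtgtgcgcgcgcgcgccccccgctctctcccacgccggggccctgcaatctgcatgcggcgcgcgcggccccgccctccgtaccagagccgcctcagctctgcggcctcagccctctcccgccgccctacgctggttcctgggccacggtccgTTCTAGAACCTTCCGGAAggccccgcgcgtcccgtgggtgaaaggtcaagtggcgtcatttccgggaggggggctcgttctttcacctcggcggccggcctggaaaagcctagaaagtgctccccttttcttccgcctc

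Hspa1a and Hspa1b, neighbours with 9951 bases between them, differed at 4 of 300 promoter positions, and both held the 2-unit form 104 bases before the start. Hsph1 held the 3-unit form 36 bases after start site 1, Hspb1 held the 2-unit form 117 and 97 bases before its start, and Hspe1 held overlapping 3-unit forms from 89 bases before. Hspd1 and Hspe1 lie head to head: the window at Hspd1 start site 2 and that of Hspe1 share 285 bases read on opposite strands, so they hold the same element. Of the 7 genes, 6 held at least 1 2-unit form and 3 a 3-unit form, and the windows of Dnajb1 held neither. Among all 32851 promoter windows the shares were 7.86% and 0.603%. Those shares are per window, while a gene was counted if any of its windows held the letters. The near-identical windows of Hspa1a and Hspa1b, and the element of Hspd1 and Hspe1, were counted for each gene. These letter matches are a description of the windows and say nothing of whether a factor was bound.

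**Figure D1:**
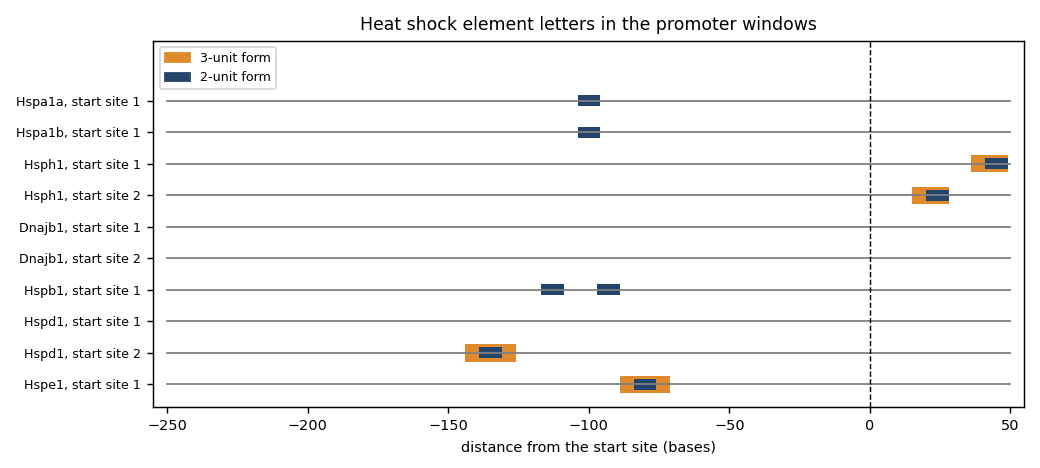
Positions of the searched heat shock element letters in the promoter windows of 7 chaperone genes, by distance from the start site in bases (boxes: 3-unit and 2-unit forms; lines: the window searched). The elements of Hspa1a and Hspa1b sit at the same distance from the start, and those of Hsph1 lie after it.

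A WAT library held 48348395 to 58396991 counts in total, and a liver library 45624957 to 60761705. The 10 genes took 0.320% to 0.431% of the counts in WAT and 0.167% to 0.216% in liver, and mitochondrially encoded genes took 2.31% to 3.61% in WAT and 43.0% to 44.9% in liver. The first principal component, with 72.2% of the variance in WAT and 25.03% in liver, set the 2 libraries of fl/fl mice on vehicle apart from the other 6 in each tissue. In WAT, Gpr132 itself had 56.4 and 59.1 CPM in CKO on NOX_6_18 and 35.6 and 64.5 in CKO on vehicle. It had 60.3 and 60.1 in fl/fl on NOX_6_18 and 72.4 and 69.7 with vehicle in fl/fl, so it did not separate the CKO from the fl/fl libraries there. In liver it had 2.8 and 2.4, 1.9 and 1.5, 2.1 and 1.6, and 4.3 and 4.0 CPM in the same order, with the libraries of fl/fl mice on NOX_6_18 as low as the CKO libraries. CPM is the read count relative to the library total, with that total scaled by the trimmed mean of M values (TMM) within a tissue. The macrophage marker Adgre1 was measured in each library (359 to 629 CPM in WAT, 115 to 123 in liver), but so were the fibroblast gene Col1a1 in WAT (1629 to 3480 CPM) and the hepatocyte gene Alb in liver (1742 to 2024 CPM). In bulk RNA, fewer cells of a type and less RNA per cell cannot be told apart.

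In WAT, 5 of the 10 genes were higher with NOX_6_18 in fl/fl mice than with vehicle, and none was lower: the inducible HSP70 pair Hspa1a and Hspa1b, their partners Hsph1 and Dnajb1, and the inducible HSP90 gene Hsp90aa1. Of all 25871 genes tested, 37.8% were called (24.6% higher and 13.2% lower), and 36.8% for CKO on vehicle (24.4% and 12.4%). The folds of the 5 genes ran from 1.30 (Dnajb1) to 1.86 (Hspa1b). The same 5 genes were higher in CKO mice on vehicle than in fl/fl mice on vehicle, by 1.35 to 1.83 fold (Hsph1 and Dnajb1 the lowest, Hspa1b the highest). These 2 comparisons share the fl/fl vehicle libraries, so they are not independent of each other.

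Hspa1a, which encodes an inducible cytosolic HSP70, had 253.9 and 274.1 CPM in CKO on NOX_6_18, 276.2 and 270.6 in CKO on vehicle, 270.4 and 267.4 in fl/fl on NOX_6_18, and 182.9 and 166.9 in fl/fl on vehicle. Hspa1b, its near-identical neighbour, had 265.2 and 280.9, 285.0 and 271.9, 278.2 and 287.6, and 147.4 and 156.3 CPM in the same order. For both genes the 6 libraries of the other 3 groups lay together and above both fl/fl vehicle libraries. The log2 fold changes of Hspa1a were 0.62 ± 0.07 (SE) with NOX_6_18 in fl/fl mice (adjusted p = 0.000192) and 0.64 ± 0.07 for CKO on vehicle (adjusted p = 0.000154), by edgeR's quasi-likelihood test with Benjamini-Hochberg adjustment, used throughout. Those of Hspa1b were 0.90 ± 0.06 (adjusted p = 1.44e-05) and 0.88 ± 0.06 (adjusted p = 1.64e-05).

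Hsph1 encodes HSP110, a nucleotide exchange factor for HSP70, and Dnajb1 encodes an HSP40, the J-domain partner of stress-induced HSP70. Hsph1 had 110.3 and 103.1 CPM in CKO on NOX_6_18, 98.1 and 100.7 in CKO on vehicle, 96.4 and 98.6 in fl/fl on NOX_6_18, and 73.3 and 73.4 in fl/fl on vehicle. Dnajb1 had 134.4 and 131.3, 138.6 and 136.3, 130.4 and 135.3, and 107.4 and 96.9 CPM in the same order. Again no library of the other 3 groups reached down to the fl/fl vehicle level. The log2 fold changes with NOX_6_18 in fl/fl mice and for CKO on vehicle were 0.41 ± 0.07 and 0.44 ± 0.07 for Hsph1 (adjusted p = 0.00191 and 0.00137), and 0.38 ± 0.07 and 0.43 ± 0.07 for Dnajb1 (adjusted p = 0.00385 and 0.00208).

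Of the cytosolic HSP90 genes, the inducible Hsp90aa1 had 465.3 and 456.6 CPM in CKO on NOX_6_18, 482.5 and 452.8 in CKO on vehicle, 457.5 and 397.5 in fl/fl on NOX_6_18, and 272.5 and 254.9 in fl/fl on vehicle. Its log2 fold changes in the 2 comparisons were 0.70 ± 0.08 (adjusted p = 0.000203) and 0.83 ± 0.08 (adjusted p = 7.47e-05). The constitutive Hsp90ab1 ranged from 1201 to 1279 CPM over the 6 libraries of the other groups, against 1216 and 1287 in the fl/fl vehicle libraries, and was not called (adjusted p = 0.373 and 0.866). Hsp90aa1 had all 6 other libraries above both fl/fl vehicle libraries, as did 30.5% of all genes, while the levels of Hsp90ab1 overlapped.

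The other 4 genes were not called in either WAT comparison. Hspa8, the constitutive HSP70, ranged from 1165 to 1411 CPM in the 6 libraries, against 1220 and 1322 in fl/fl on vehicle, and Hspb1, a small heat shock protein, from 133.8 to 164.0, against 129.99 and 148.6. Hspd1, mitochondrial HSP60, ranged from 111.4 to 124.7 CPM, against 121.5 and 128.3, and its partner Hspe1, mitochondrial HSP10, from 32.5 to 37.4, against 38.9 and 40.6. Hspe1 was the only one of the 4 whose groups did not overlap, with the fl/fl vehicle libraries on top; its log2 differences of -0.21 ± 0.09 and -0.16 ± 0.09 missed the threshold (adjusted p = 0.121 and 0.234). The adjusted p-values of Hspa8, Hspb1 and Hspd1 ran from 0.116 to 0.932.

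**Figure D2:**
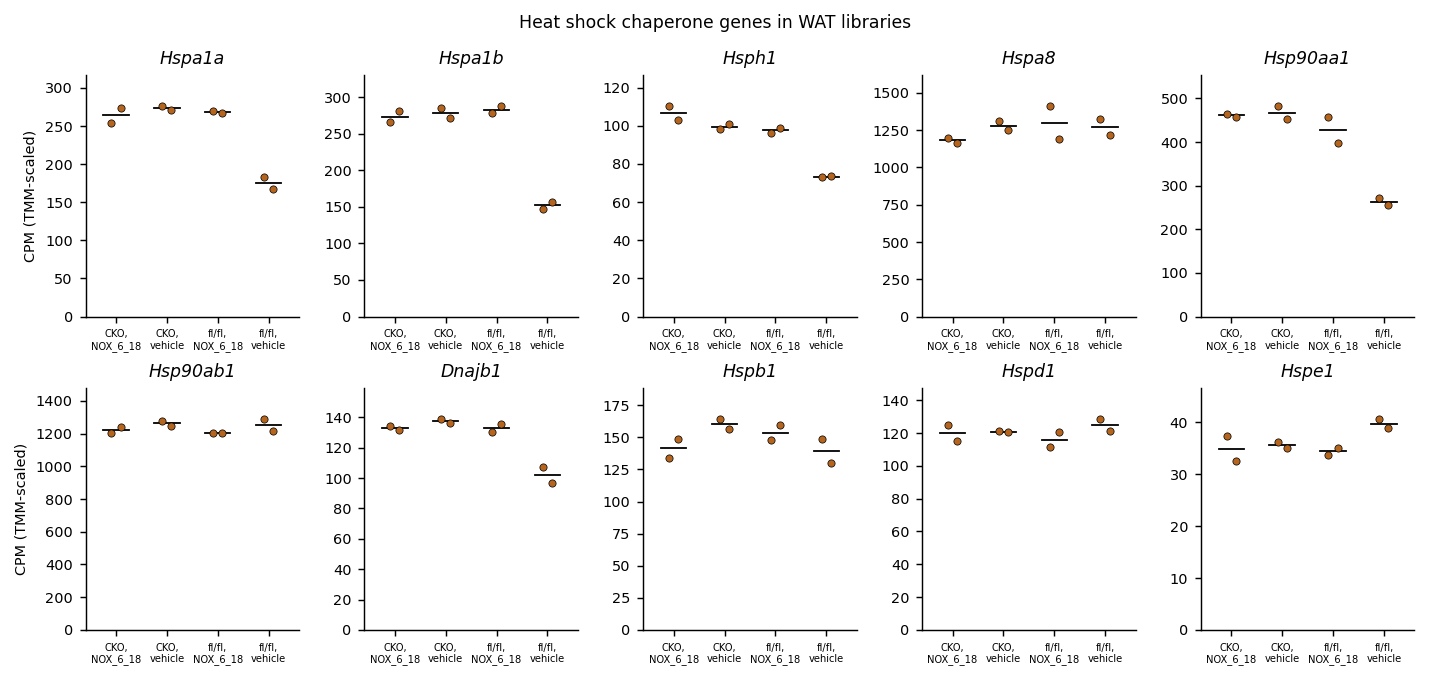
CPM of the 10 chaperone genes in the 8 WAT libraries (points: libraries; bars: group means of 2; each axis starts at 0). Hspa1a, Hspa1b, Hsph1, Hsp90aa1 and Dnajb1 are lower in the fl/fl vehicle libraries than in the other 6, and Hspa8, Hsp90ab1, Hspb1 and Hspd1 overlap.

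Against the background, the WAT counts are not a result about the members as a list. With NOX_6_18 in fl/fl mice 37.8% of 25871 genes were called (24.6% higher and 13.2% lower), and for CKO on vehicle 36.8% (24.4% higher and 12.4% lower). In the same way 5 of the 10 genes had all 6 other libraries above both fl/fl vehicle libraries and 1 (Hspe1) had them below, against 30.5% and 20.8% of all genes. The median log2 fold change of the 10 genes was 0.26 with NOX_6_18 and 0.32 for CKO on vehicle, against 0.12 and 0.10 over all genes tested. The scaling matters at that size: the median of all genes was 0.29 and 0.26 with library totals only and -0.01 and -0.02 with libraries recentred on the median gene. The split of genes called with NOX_6_18 in fl/fl mice, 6373 higher and 3411 lower, was 7496 and 1585 with library totals and 5889 and 5381 when recentred. For CKO on vehicle the 6313 higher and 3216 lower calls became 7358 and 1457, and 5836 and 5231. The 5 called members stayed called and higher under each scaling. Recentred, Hsp90ab1, Hspd1 and Hspe1 also passed the test with NOX_6_18, with lower values in fl/fl on NOX_6_18 than in fl/fl on vehicle (log2 fold changes of -0.19, -0.24 and -0.34), which took the count to 8. With library totals Hspb1 passed in both comparisons (0.31 and 0.37), and so did the constitutive Hsp90ab1 for CKO on vehicle (0.18, adjusted p = 0.0137). Recentred, Hspe1 passed for CKO on vehicle too, with a lower level in CKO (-0.28, adjusted p = 0.0423). Without replicate 1 of the WAT fl/fl vehicle libraries, Hspb1 passed in CKO on vehicle (0.30, adjusted p = 0.0423).

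Male germ cell and other cell type markers moved with the same libraries. Of all genes, 24.6% were called higher and 13.2% lower with NOX_6_18, and 24.4% and 12.4% for CKO on vehicle. The summed level of the 13 spermatid markers was 1150 to 1259 CPM in the other 6 WAT libraries, against 32.4 and 36.1 in fl/fl on vehicle, and all 13 were called higher in both comparisons. Prm1, a protamine that packs sperm DNA, had 140.3 and 127.4 CPM in CKO on NOX_6_18, 142.9 and 138.9 in CKO on vehicle, 132.2 and 132.8 in fl/fl on NOX_6_18, and 3.0 and 2.6 in fl/fl on vehicle. The 11 spermatocyte markers summed to 414 to 429 CPM against 7.39 and 7.74 (all 11 higher), the 14 macrophage markers to 8533 to 8728 against 13670 and 14286 (10 lower and 2 higher with NOX_6_18, 11 and 1 for CKO), and the 9 fibroblast markers to 12856 to 13254 against 23676 and 24758 (8 lower in both). The 18 immediate early genes summed to 20435 to 21581 against 27800 and 29425 (14 lower with NOX_6_18; 13 lower and 1 higher for CKO). Each spermatid marker was above 0 in every WAT group, and of the spermatocyte markers Boll was at 0 in fl/fl on vehicle. Hsp90aa1 and several chaperones are abundant in male germ cells, and the part of these cells in the 5 changes was not tested. The 12 adipocyte markers summed to 1552 to 1733 CPM in the other 6 libraries, against 2289 and 2501, although 5 of them were called higher and 3 lower in both comparisons.

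A list of 20 testis-enriched chaperones and related genes, none of them among the 10 genes, summed to 1101 to 1116 CPM in the other 6 WAT libraries, against 291 and 292 in fl/fl on vehicle, and all 20 were called higher in both comparisons (median log2 fold change 4.89 with NOX_6_18 and 4.91 for CKO on vehicle). Of all genes, 24.6% and 24.4% were called higher in these comparisons. Clgn, a chaperone of the spermatid endoplasmic reticulum, rose by 5.81 ± 0.10 and 5.84 ± 0.10 (adjusted p = 1.79e-08 and 1.73e-08). Hspa1l, a testis HSP70 beside Hspa1a on chromosome 17, had 45.8 and 47.7 CPM in CKO on NOX_6_18, 45.3 and 48.9 in CKO on vehicle, 43.9 and 44.6 in fl/fl on NOX_6_18, and 4.6 and 2.9 in fl/fl on vehicle. Hspa2, the HSP70 of spermatocytes, rose by 2.58 ± 0.06 and 2.59 ± 0.06 on the log2 scale (adjusted p = 5.6e-08 and 5.39e-08), and Hspb9, a small heat shock protein of the testis, by 4.59 ± 0.22 and 4.67 ± 0.22 (adjusted p = 1.43e-06 and 1.33e-06).

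Calls in the remaining chaperone lists in WAT were fewer. Over all genes 37.8% were called with NOX_6_18 (24.6% higher and 13.2% lower) and 36.8% for CKO on vehicle (24.4% and 12.4%). Against these shares the counts of the lists, here and in the next paragraph, are not a result about chaperones. Of the 16 other genes known as HSF1 targets, 4 were higher and 2 lower in both comparisons, with medians of -0.08 and 0.07; the higher ones were led by Hspa4l, which is also on the testis list. Stip1, which links HSP70 to HSP90, rose by 0.32 ± 0.07 and 0.36 ± 0.07 (adjusted p = 0.0105 and 0.0063), while Zfand2a, an arsenite-induced proteasome partner, fell by 0.48 and by 0.56 (SE 0.07 each; adjusted p = 0.000951 and 0.000423). Of 8 small heat shock proteins fitted beside Hspb1, 1 was called in each comparison, Hspb9. The list summed to 143 to 159 CPM in the other 6 libraries, against 94.6 and 109.9 in fl/fl on vehicle, and Hspb9 alone had 44.1 to 51.1 CPM, against 1.38 and 2.46. For the co-factors of HSP70, 3 of 10 nucleotide exchange and BAG genes were higher with NOX_6_18 and 4 for CKO on vehicle, with none lower, and the list summed to 656 to 682 CPM, against 541 and 572 in fl/fl on vehicle. Bag5 led them with 1.22 ± 0.08 and 1.26 ± 0.08, and Bag6 had 0.45 ± 0.06 and 0.42 ± 0.06. Of 18 other J-domain genes, 2 were higher and 2 lower with NOX_6_18, and 3 and 1 for CKO on vehicle. Dnaja4 had 0.98 ± 0.09 and 0.91 ± 0.09, and Dnajb2 0.97 ± 0.10 and 0.75 ± 0.10. Of 11 other HSP70 and HSP110 genes, 4 were higher and 1 lower in each comparison, Hspa1l and Hspa2 among the higher ones. Of 11 mitochondrial folding and protease genes 1 was called, Clpx, an ATPase that unfolds proteins for a mitochondrial protease (0.45 ± 0.14 and 0.47 ± 0.14).

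Among the 18 HSP90 relatives and cochaperones, 4 were higher and 1 lower with NOX_6_18, and 3 and 1 for CKO on vehicle; Fkbp5, an HSP90 cochaperone of steroid receptors, had the highest fold, 1.46 ± 0.07 and 1.45 ± 0.07. Of the 14 subunits of the cytosolic chaperonin TRiC and of prefoldin, 1 was higher and 3 lower with NOX_6_18, and 3 higher and 1 lower for CKO, with Tcp1 the highest (0.79 ± 0.06 and 0.88 ± 0.06). Pfdn2, a prefoldin subunit, fell by 0.43 ± 0.10 with NOX_6_18 (-0.27 for CKO, not called). None of the 9 heat shock factors and regulators was called with NOX_6_18 (3 had an unadjusted p under 0.05; Ier5 0.02 ± 0.06, Hsbp1 0.05 ± 0.11), and Hikeshi, the nuclear import carrier of HSP70, fell by 0.35 for CKO on vehicle (SE 0.11, adjusted p = 0.0426).

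In liver, 8 of the 10 genes changed with NOX_6_18 in fl/fl mice and 8 for CKO on vehicle, but the inducible HSP70 pair went the opposite way from the others. Hsph1, Hspa8, Hsp90aa1, Hsp90ab1, Dnajb1 and Hspd1 were higher in both comparisons, by 1.37 to 2.46 fold, while Hspa1a and Hspa1b were lower, at 0.51 to 0.59 of the fl/fl vehicle level. Hspb1 and Hspe1 were not called. The background was 5.52% of 19515 genes called with NOX_6_18 (3.78% higher and 1.74% lower) and 5.8% for CKO on vehicle (3.96% and 1.83%), and the members' share was above it, for genes chosen with earlier results of these data known. Their median log2 fold change was 0.53 and 0.62, against -0.01 in both comparisons over all genes. The numbers of genes called, 1077 and 1131, fell when any 1 library of the groups compared was left out, the fl/fl vehicle libraries included. No member lost its call with NOX_6_18 in these fits. For CKO on vehicle Hspa8 lost its call without either fl/fl vehicle library.

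Hsph1 showed the highest fold of the 10. It had 95.8 and 94.0 CPM in CKO on NOX_6_18, 90.8 and 93.1 in CKO on vehicle, 89.6 and 84.1 in fl/fl on NOX_6_18, and 38.3 and 36.5 in fl/fl on vehicle. Its log2 fold change was 1.21 ± 0.06 with NOX_6_18 in fl/fl mice (adjusted p = 1.96e-05) and 1.30 ± 0.06 for CKO on vehicle (adjusted p = 1.35e-05). No 50-base window of its transcripts exactly matched an annotated transcript of another gene, so this search found no copy that could share its reads.

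Dnajb1 had 44.2 and 43.9 CPM in CKO on NOX_6_18, 49.8 and 43.9 in CKO on vehicle, 49.0 and 45.2 in fl/fl on NOX_6_18, and 31.1 and 25.1 in fl/fl on vehicle (log2 fold changes 0.75 ± 0.11 and 0.74 ± 0.11, adjusted p = 0.0062 and 0.00634). Hspa8, which shuttles clients through folding and chaperone-mediated autophagy, had 773.1 and 745.3, 596.0 and 777.6, 766.3 and 699.0, and 442.9 and 447.7 CPM in the same order. Its groups did not overlap, though the first CKO vehicle library lay well below the second. The log2 fold changes of Hspa8 were 0.72 ± 0.11 with NOX_6_18 (adjusted p = 0.00561) and 0.63 ± 0.11 for CKO on vehicle (adjusted p = 0.0114); the second lost its call without fl/fl vehicle replicate 1 (0.62, adjusted p = 0.0707) or without replicate 2 (0.64, adjusted p = 0.0607).

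Hsp90aa1 had 95.7 and 102.1 CPM in CKO on NOX_6_18, 103.0 and 97.5 in CKO on vehicle, 94.9 and 102.5 in fl/fl on NOX_6_18, and 61.5 and 69.0 in fl/fl on vehicle. Hsp90ab1 had 709.6 and 680.3, 710.4 and 703.2, 692.6 and 736.2, and 510.9 and 519.7 CPM in the same order. Here the constitutive HSP90 gene moved with the inducible one, by 0.47 ± 0.04 and 0.46 ± 0.04 on the log2 scale (adjusted p = 0.000359 and 0.000451), against 0.60 ± 0.08 and 0.62 ± 0.08 for Hsp90aa1 (adjusted p = 0.00275 and 0.00227).

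The inducible HSP70 genes were highest in fl/fl mice on vehicle. Hspa1a had 121.1 and 122.9 CPM in CKO on NOX_6_18, 119.2 and 114.1 in CKO on vehicle, 128.0 and 118.7 in fl/fl on NOX_6_18, and 213.3 and 206.1 in fl/fl on vehicle. Hspa1b had 150.2 and 145.4, 150.0 and 136.7, 157.2 and 151.3, and 289.5 and 276.2 CPM in the same order. Neither gene had a library of the other 3 groups near the fl/fl vehicle level. Hspa1a fell by 0.77 ± 0.06 with NOX_6_18 in fl/fl mice (adjusted p = 0.000138) and by 0.85 ± 0.06 for CKO on vehicle (adjusted p = 7.96e-05), and Hspa1b fell by 0.87 ± 0.06 (adjusted p = 8.57e-05) and by 0.98 ± 0.06 (adjusted p = 4.83e-05), on the log2 scale.

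In the mitochondrial pair, Hspd1 had 77.8 and 71.9 CPM in CKO on NOX_6_18, 82.4 and 77.5 in CKO on vehicle, 74.4 and 83.1 in fl/fl on NOX_6_18, and 50.3 and 50.8 in fl/fl on vehicle (log2 fold changes 0.64 ± 0.08 and 0.66 ± 0.08, adjusted p = 0.00172 and 0.00148). Hspe1 had 18.3 and 23.3, 26.5 and 21.3, 19.8 and 23.0, and 15.5 and 15.4 CPM in the same order. All 6 libraries of Hspe1 lay above the fl/fl vehicle libraries, but they spread more widely than those of any other member, the highest being 1.45 times the lowest. Its log2 differences of 0.47 ± 0.15 and 0.63 ± 0.15 missed the threshold (adjusted p = 0.138 and 0.0523); the second passed with DESeq2 (adjusted p = 0.00238) and with limma-voom (adjusted p = 0.0492). Hspb1 stayed between 27.96 and 33.7 CPM in the 6 libraries, against 29.8 and 29.1 in fl/fl on vehicle, and was not called (adjusted p = 0.523 and 0.829). Counting by library, 7 members had all 6 other libraries above both fl/fl vehicle libraries and 2 had them below, against 12.7% and 12.2% of all genes.

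**Figure D3:**
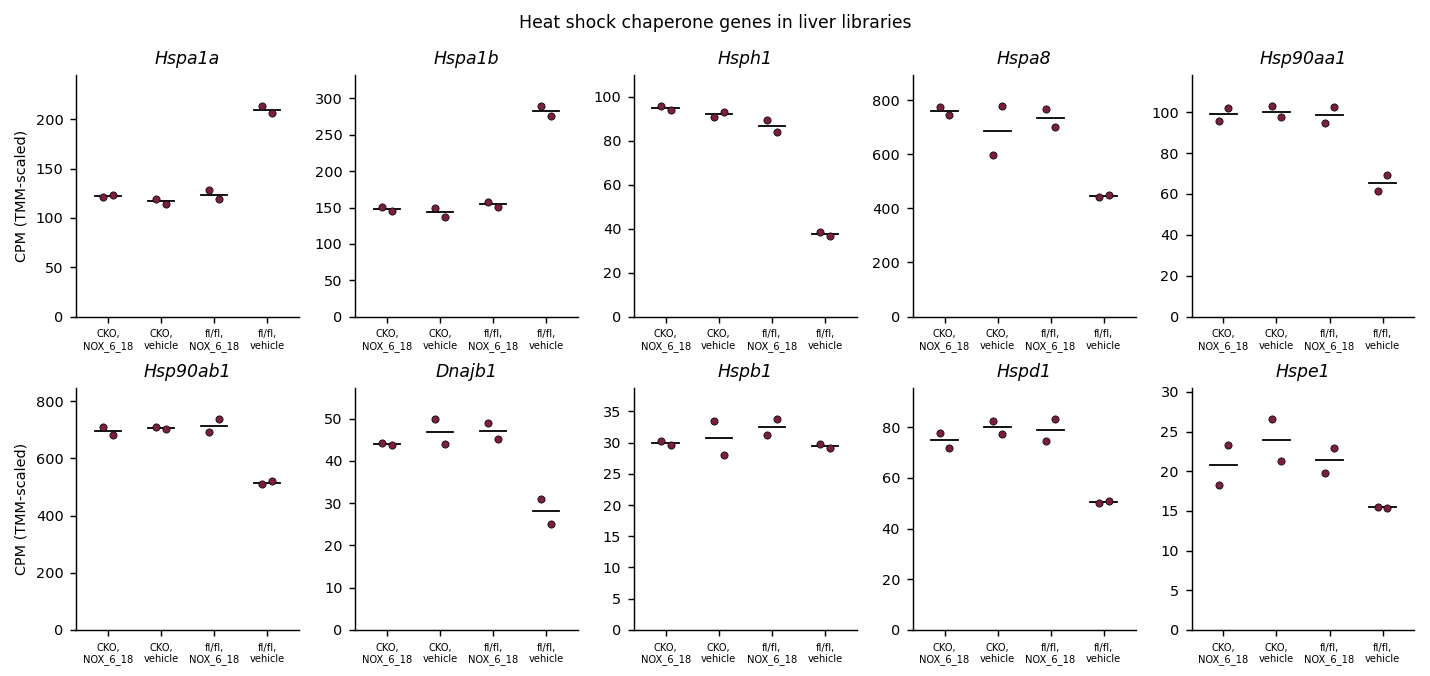
CPM of the 10 chaperone genes in the 8 liver libraries (points: libraries; bars: group means of 2; each axis starts at 0). Hspa1a and Hspa1b are highest in the fl/fl vehicle libraries, Hspb1 overlaps, and the other 7 genes are lowest there.

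In liver 2 of the other chaperone lists held many calls, all higher. Over all genes 5.52% were called with NOX_6_18 (3.78% higher and 1.74% lower) and 5.8% for CKO on vehicle (3.96% and 1.83%). All lists were chosen with earlier results of these data known. Of 18 HSP90 relatives and cochaperones, 9 were higher and none lower in each comparison (medians 0.32 and 0.26), and of 16 other HSF1 targets, 9 were higher and none lower (medians 0.43 and 0.49); Ahsa1, Chordc1, Fkbp4 and Stip1 stand on both lists. Dnaja1, a J-domain partner of Hspa8, had 204.4 and 225.8 CPM in CKO on NOX_6_18, 217.4 and 229.1 in CKO on vehicle, 209.6 and 230.5 in fl/fl on NOX_6_18, and 110.1 and 114.0 in fl/fl on vehicle. Its log2 fold changes were 0.97 ± 0.07 and 0.99 ± 0.07 (adjusted p = 0.000108 and 9.45e-05). Chordc1, an HSP90 partner, rose by 0.83 ± 0.10 and 0.84 ± 0.10, Stip1 by 0.75 ± 0.08 in each comparison, Ahsa1, the activator of the HSP90 ATPase, by 0.64 ± 0.08 and 0.67 ± 0.08, and Bag3, which couples HSP70 to autophagy, by 0.65 ± 0.08 and 0.59 ± 0.08 (adjusted p from 0.00131 to 0.00298). Among the other HSP70 relatives Hspa4l and the endoplasmic reticulum HSP70, Hspa5, were higher (0.81 ± 0.10 and 0.65 ± 0.05 with NOX_6_18, 0.78 ± 0.10 and 0.69 ± 0.05 for CKO), the other 9 not called. Hspb8, a small heat shock protein that works with Bag3, rose by 1.24 ± 0.16 and 1.18 ± 0.16. It was the 1 small heat shock protein of 7 fitted that was called with NOX_6_18, and Hspb7 was called beside it for CKO on vehicle (1.04 ± 0.22, adjusted p = 0.0321). Bag3 was the 1 gene called of 10 nucleotide exchange and BAG genes. Of 18 other J-domain genes, Dnaja1 was called in both comparisons and Dnajb2 with NOX_6_18 (0.72 ± 0.14, adjusted p = 0.0196).

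Other lists did not share this count, beside the 5.52% and 5.8% of all genes called. None of the 14 TRiC and prefoldin subunits was called in liver in either comparison by edgeR (8 with NOX_6_18 and 5 for CKO had an unadjusted p under 0.05; medians 0.21 and 0.17); Cct8, a TRiC subunit, had 0.34 ± 0.09 and 0.15 ± 0.09. None of the 11 mitochondrial folding and protease genes was called (2 and 0 with an unadjusted p under 0.05; medians 0.06 and 0.08); Hspa9, the mitochondrial HSP70, had 0.18 ± 0.08 and 0.12 ± 0.07. Neither was any of the 9 heat shock factors and regulators (0 and 1 with an unadjusted p under 0.05; medians -0.01 and 0.06); Ier5, which raises HSF1 activity, had log2 differences of -0.12 ± 0.09 and -0.21 ± 0.09. Hsf1, named here after its values were seen, had -0.17 ± 0.19 and 0.07 ± 0.19.

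**Figure D4:**
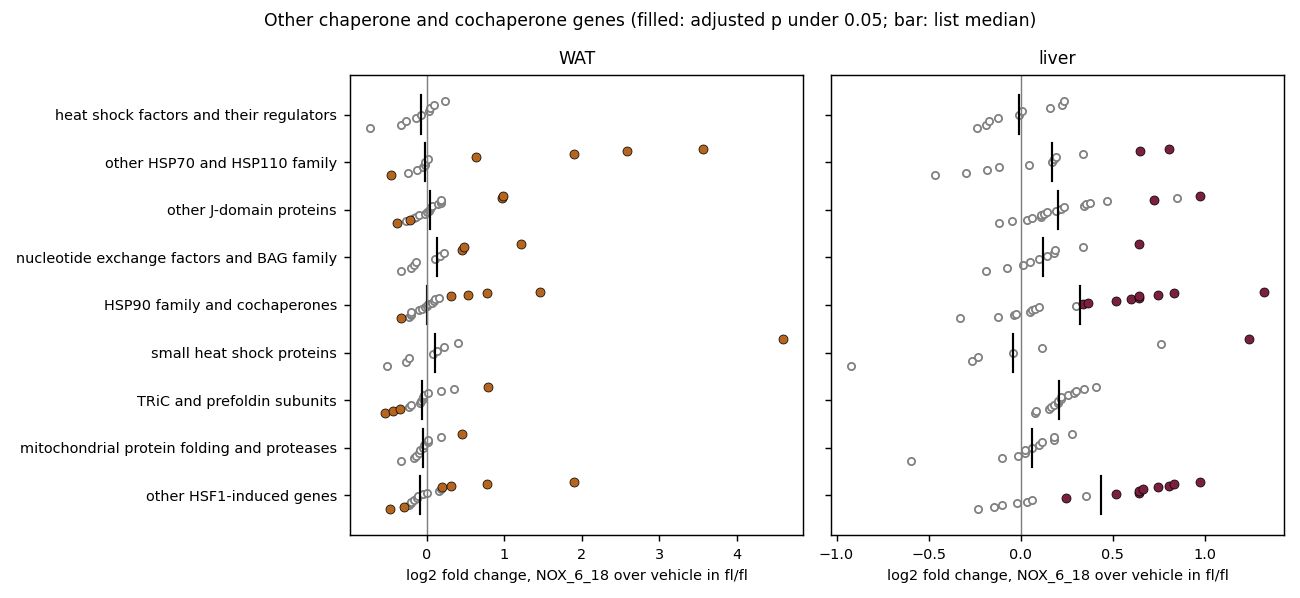
Log2 fold change with NOX_6_18 in fl/fl mice of other chaperone genes in WAT (left) and liver (right; the horizontal scales differ), 1 point per gene, filled where called, with the list median as a bar. In liver 9 of 18 HSP90 relatives and cochaperones and 9 of 16 HSF1 targets are called, all higher, against 5.52% of all genes. In WAT the lists scatter to both sides, with Hspb9, Hspa1l and Hspa2 farthest out.

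Several marker lists moved in the liver too. These lists were chosen with earlier results of these data known. Of all genes, 3.78% were called higher and 1.74% lower with NOX_6_18, and 3.96% and 1.83% for CKO on vehicle. The 10 glucocorticoid-induced genes, Fkbp5 among them, summed to 773 to 857 CPM in the other 6 libraries, against 482 and 483 in fl/fl on vehicle, and 8 of 10 were called higher in both comparisons (medians 0.90 and 0.93). Fkbp5 had 83.6 and 85.6 CPM in CKO on NOX_6_18, 86.7 and 81.8 in CKO on vehicle, 80.4 and 78.8 in fl/fl on NOX_6_18, and 33.2 and 30.5 in fl/fl on vehicle. The 10 neutrophil markers summed to 106 to 116 CPM against 20.4 and 25.7 (8 higher in both), and the 8 erythroid markers to 4099 to 4509 against 7663 and 8081 (5 lower in both). The 12 markers of endoplasmic reticulum and integrated stress summed to 874 to 919 against 657 and 669 (3 and 4 higher), and the 18 immediate early genes to 1196 to 1303 against 1300 and 1318 (2 higher and 4 lower in both). Spermatid markers summed to 4.36 to 5.79 CPM against 3.32 and 3.88, with 10 of 13, Prm1, Prm2, Tnp1 and Tnp2 among them, at 0 in fl/fl on vehicle. Of 20 testis-enriched chaperones, 14 could be fitted in liver and 1 was called higher in each comparison. The 7 Kupffer cell markers summed to 1863 to 1910 against 1561 and 1615 (4 higher with NOX_6_18, 5 for CKO), the 14 macrophage markers to 3213 to 3285 against 2971 and 3031 (3 higher and 3 lower), and the 12 hepatocyte markers to 3252 to 3332 against 2896 and 2990 (6 and 7 higher, 3 lower). The 9 T and B cell markers summed to 20.7 to 24.2 against 43.0 and 43.6 (3 and 4 lower). The part of these genes and cells in the chaperone changes was not tested.

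No gene of the 10 passed the test for treatment in CKO mice or for genotype under treatment, in either tissue. With NOX_6_18 in CKO mice, 0 of 10 were called in WAT and 0 of 10 in liver, against backgrounds of 0.0155% (0.00387% higher and 0.0116% lower) and 0.0359% of genes (0.0256% higher and 0.0102% lower). For CKO over fl/fl mice on NOX_6_18, 0 of 10 were called in each tissue, against 0.0348% (0.0155% higher and 0.0193% lower) and 0.0359% (0.0256% higher and 0.0102% lower). None of these 4 comparisons gave a member an unadjusted p under 0.05, and DESeq2 and limma-voom also called 0. The log2 differences lay between -0.20 and 0.14 with NOX_6_18 in CKO mice and between -0.14 and 0.13 for CKO on NOX_6_18. A joint test of the 3 groups other than fl/fl on vehicle likewise called 0 of 10 in WAT (background 0.0232%) and 0 of 10 in liver (0.0512%), while one over all 4 groups called 5 in WAT (background 30.8%) and 8 in liver (4.04%; 5 without either fl/fl vehicle library). Across those 6 libraries the highest level of a gene was 1.06 to 1.23 times its lowest in WAT and 1.08 to 1.45 times in liver.

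The treatment by genotype interaction asks whether the NOX_6_18 effect in CKO mice differed from that in fl/fl mice. It rests on the same fl/fl vehicle libraries as the 2 comparisons above. In WAT 5 of 10 genes were called, all negative, beside 25.3% of genes (6.71% positive and 18.6% negative): Hspa1b (-0.93 ± 0.09, adjusted p = 0.000136), Hsp90aa1 (-0.72 ± 0.11, adjusted p = 0.00181), Hspa1a (-0.67 ± 0.10, adjusted p = 0.0013), Dnajb1 (-0.43 ± 0.10, adjusted p = 0.0164) and Hsph1 (-0.31 ± 0.10, adjusted p = 0.0482). The Hsph1 call was lost without any 1 of the 8 libraries (adjusted p from 0.0636 to 0.17), and the Dnajb1 call without replicate 2 of fl/fl on NOX_6_18, replicate 1 of CKO on vehicle, or either CKO library on NOX_6_18 (adjusted p from 0.0526 to 0.0673); both were also lost when libraries were recentred, which left 3 calls. Hspb1 passed without replicate 1 of fl/fl on vehicle (-0.42, adjusted p = 0.0376) and with library totals (-0.49, adjusted p = 0.0221). Over all genes the 1737 positive and 4810 negative calls became 790 and 5513 with library totals and 3051 and 4558 when recentred. In liver 7 of 10 were called, against 2.45% (0.584% positive and 1.87% negative). Hsph1 (-1.17 ± 0.09, adjusted p = 0.00031), Dnajb1 (-0.84 ± 0.16, adjusted p = 0.0318), Hspd1 (-0.73 ± 0.11, adjusted p = 0.00969), Hsp90aa1 (-0.62 ± 0.11, adjusted p = 0.0235) and Hsp90ab1 (-0.50 ± 0.06, adjusted p = 0.00352) were negative, and Hspa1b (0.92 ± 0.08, adjusted p = 0.000951) and Hspa1a (0.83 ± 0.08, adjusted p = 0.00116) positive. When libraries were left out in turn, the liver call of Dnajb1 held without replicate 1 of fl/fl on vehicle or replicate 2 of CKO on vehicle, and was lost without each of the other 6 (adjusted p from 0.0647 to 0.109). It was also lost with library totals (-0.83, adjusted p = 0.0541). Hspa8, not called in the liver interaction (adjusted p = 0.107), passed without replicate 1 of CKO on vehicle (-0.75, adjusted p = 0.00363), with DESeq2 (adjusted p = 0.000272) and with no filter (adjusted p = 0.013). That of Hsp90aa1 was lost without replicate 1 of fl/fl on vehicle, replicate 2 of fl/fl on NOX_6_18, replicate 1 of CKO on vehicle, or either CKO library on NOX_6_18 (adjusted p from 0.0514 to 0.0888).

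The 2 tissues were then compared directly, by the difference between the WAT effect and the liver effect in 1 fit of all 16 libraries. That fit treated all 16 libraries as independent. The WAT and liver libraries of a group may come from the same mice, which the labels do not settle. With NOX_6_18 in fl/fl mice 7 of 10 genes differed, against 14.7% of 26751 genes (7.51% higher and 7.2% lower). The effect was higher in WAT for Hspa1b (1.78 ± 0.09, adjusted p = 3.69e-07) and Hspa1a (1.39 ± 0.09, adjusted p = 1.5e-06), the genes that rose in WAT and fell in liver. It was lower in WAT for Hsph1 (-0.80 ± 0.09, adjusted p = 8.05e-05), Hspd1 (-0.74 ± 0.10, adjusted p = 0.000441), Hspa8 (-0.68 ± 0.15, adjusted p = 0.00907), Hspe1 (-0.67 ± 0.19, adjusted p = 0.0325) and Hsp90ab1 (-0.52 ± 0.06, adjusted p = 0.000103). Hsp90aa1, Dnajb1 and Hspb1 were not called (0.11, -0.36 and 0.01; adjusted p = 0.672, 0.112 and 1). For CKO on vehicle the same 7 were called against 14.2% (7.44% higher and 6.75% lower), with 1.86 ± 0.09 for Hspa1b, 1.5 ± 0.09 for Hspa1a, -0.85 ± 0.09 for Hsph1, -0.78 ± 0.19 for Hspe1, -0.70 ± 0.10 for Hspd1, -0.60 ± 0.15 for Hspa8 and -0.44 ± 0.06 for Hsp90ab1 (adjusted p from 2.54e-07 to 0.018).

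Some of these differences rested on single libraries or on the scaling. With library totals Hspe1 lost its call with NOX_6_18 (-0.51, adjusted p = 0.114) and for CKO on vehicle (-0.63, adjusted p = 0.0524), and Hspa8 lost its call for CKO on vehicle (-0.45, adjusted p = 0.0675). Dnajb1 passed when recentred (-0.63 with NOX_6_18 and -0.56 for CKO on vehicle) and without replicate 1 of the liver fl/fl vehicle libraries (-0.53 and -0.47). Hspe1 lost its call with NOX_6_18 without 7 of the 8 libraries, each in turn (all but replicate 1 of fl/fl on NOX_6_18 in liver; adjusted p from 0.0568 to 0.12), and for CKO on vehicle without replicate 2 of CKO on vehicle in WAT (adjusted p = 0.0576) or replicate 1 in liver (0.071). Hspa8 lost its call for CKO on vehicle without replicate 1 of fl/fl on vehicle in WAT (adjusted p = 0.0588) or in liver (0.0525), or without replicate 2 of CKO on vehicle in WAT (0.0672) or in liver (-0.40, adjusted p = 0.0504). Over all genes the 2008 higher and 1925 lower calls with NOX_6_18 became 2495 and 975 with library totals and 1640 and 4470 with libraries recentred. For CKO on vehicle 1991 and 1805 became 2416 and 916, and 1645 and 4307. The median difference of all genes, 0.15, became -0.11 when recentred and 0.31 with library totals.

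**Figure D5:**
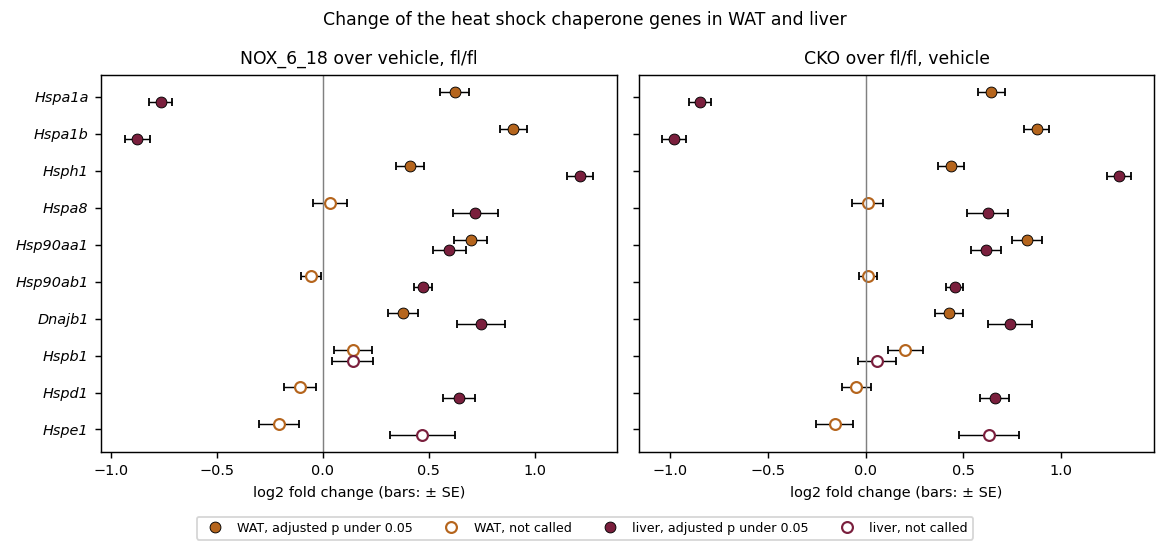
Log2 fold change ± SE of the 10 chaperone genes with NOX_6_18 over vehicle in fl/fl mice (left) and in CKO over fl/fl mice on vehicle (right), WAT above liver in each row, filled where the adjusted p is under 0.05. Hspa1a and Hspa1b lie on opposite sides of 0 in the 2 tissues, and Hsp90aa1 and Dnajb1 on the same side.

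Because Hspa1a and Hspa1b are nearly the same sequence, their separate counts are uncertain: 66.3% and 62.3% of their 50-base transcript windows are shared with another gene, mostly with each other. Summed, the pair rose by 0.76 in WAT in both comparisons (adjusted p = 1.46e-05 and 1.43e-05) and fell by 0.83 and by 0.92 in liver (adjusted p = 6.06e-05 and 3.07e-05), so the opposite directions did not depend on how reads were divided between them. The ratio of Hspa1a to Hspa1b counts was 0.930 to 0.995 in the other 6 WAT libraries, against 1.24 and 1.07 in fl/fl on vehicle, and 0.784 to 0.845 in the other 6 liver libraries, against 0.737 and 0.746 in fl/fl on vehicle. On the opposite strand Gm20481 overlaps 19.0% of the Hspa1a exon. The genes that share windows with Hspa1a (Hspa1l, Gm20481 and Gm10501) together had 1.86% to 18.3% of its count in WAT and 0.695% to 2.21% in liver. Of these, Hspa1l was itself higher in the other 6 WAT libraries than in fl/fl on vehicle. The part of reads shared with it in the WAT rise of the pair was not tested. Other genes, copies or not, share 50.1% of the windows of Hspb1, 47.5% of Hsp90aa1, 42.1% of Hspd1, 39.4% of Hspa8 and 22.8% of Hspe1. The share is only 3.44% for Hsp90ab1 and 0.412% for Dnajb1. Part of the Hspe1 share, 4.42% of its windows, is shared with Hspd1. The exons of Hspd1 and Hspe1 overlap by 112 bases on opposite strands, and Hspa8 exons contain 3 small nucleolar RNA genes. How the counting treated strand and multiply mapped reads is not given in the sources used here.

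Per kilobase of exon, the order was led by the constitutive genes in each of the 8 groups. Hsp90ab1 was first, at 281 ± 7 CPM per kb in WAT CKO on NOX_6_18 and 247 ± 2 in liver fl/fl on vehicle. Hspa8 came next, at 190 ± 3 and 149 ± 1 (SD, n = 2), scaled over all 16 libraries. The length was that of all annotated exons merged, used in the transcript or not, so the order depends on the annotation. Hsph1 had the lowest mean in each group, at 10.2 ± 0.4 CPM per kb in WAT CKO on NOX_6_18 and 7.41 ± 0.28 in liver fl/fl on vehicle. Its merged exons are long, 7266 bases against 1474 for Hspe1. Without division by length Hsph1 was above Hspe1, at 94.9 against 20.8 CPM in liver CKO on NOX_6_18. In all 4 WAT groups Hspb1 was the third and Hsp90aa1 the fourth; in all 4 liver groups Hspa1b was the third and Hspa1a the fourth. Hspa1b stood at 76.3 ± 1.8, 74.2 ± 5.0 and 79.6 ± 2.8 CPM per kb in liver CKO on NOX_6_18, CKO on vehicle and fl/fl on NOX_6_18, and at 145 ± 5 in fl/fl on vehicle, a spread that took in the Hspa8 mean there. Hspd1 and Hspb1 in the 3 other liver groups, and Hspe1 and Dnajb1 there, were neighbours that did not differ beyond their spread. Hsph1 also lay within the spread of Hspe1 in liver CKO on NOX_6_18 (18.9 ± 0.3 against 20.4 ± 3.5), and mean ± SD overlapped for Hsp90aa1 and Hspb1 in liver CKO on vehicle (37.0 ± 1.5 and 43.2 ± 5.5). In WAT, mean ± SD overlapped for Hspa1b and Hspa1a in CKO on NOX_6_18 and in fl/fl on vehicle, and for Hsp90aa1 and Hspa1b, and Hspd1 and Dnajb1, in fl/fl on NOX_6_18.

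WAT and liver levels were compared within each group, which depends on the scaling between tissues. These tests also treated the WAT and liver libraries as unpaired, though they may come from the same mice. In WAT against liver 8 of 10 genes were called in each group, beside backgrounds of 51.3% in CKO on NOX_6_18 (33.3% higher and 18.1% lower in WAT) and 52% in CKO on vehicle (33.7% and 18.4%). They were 51.4% in fl/fl on NOX_6_18 (33.1% and 18.3%) and 38.2% with vehicle in fl/fl (21.6% and 16.5%). Hspb1 (log2 1.17 to 1.33, SE 0.10) and Hsp90aa1 (0.95 to 1.16, SE 0.08) were higher in WAT in all 4 groups, as was Dnajb1 (0.43 to 0.79, SE 0.10), which was not called in 3 groups when recentred (0.15 to 0.24). In fl/fl on vehicle Hspa1b and Hspa1a were lower in WAT, by 1.96 ± 0.07 and 1.33 ± 0.06 (adjusted p = 1.67e-10 and 3.86e-09), or -1.02 and -0.38 with library totals (both called), whereas in the other 3 groups Hspa1a differed by 0.048 to 0.17 and Hspa1b by -0.19 to -0.10. Of these, Hspa1b was called in CKO and fl/fl on NOX_6_18 and Hspa1a in CKO on vehicle. Those 3 calls were lost in turn without WAT replicate 1, liver replicate 1 or liver replicate 2 of CKO on NOX_6_18 (adjusted p from 0.073 to 0.22), without any 1 of the 4 libraries of fl/fl on NOX_6_18 (0.0501 to 0.181), and without any 1 of the 4 libraries of CKO on vehicle (0.0547 to 0.189). Summed, the pair was not called in CKO on NOX_6_18 (-0.072), CKO on vehicle (0.027) or fl/fl on NOX_6_18 (-0.072). Hspe1 was lower in WAT in CKO on vehicle (-0.48) but not without WAT replicate 2 or liver replicate 1 (adjusted p = 0.0563 and 0.123), and in fl/fl on NOX_6_18 (-0.37) but not without 3 of the 4 libraries (0.091 to 0.22). Hspd1 in fl/fl on vehicle (0.24 ± 0.07) lost its call without WAT replicate 1 or either liver replicate (0.0756 to 0.0953). Hsph1 was lower in WAT in the 3 other groups, by 0.90 to 0.95, but it was higher there by 0.15 to 0.21 with library totals only; in 2 or 3 of these groups Hsp90ab1, Hspd1 and Hspe1 changed direction in the same way. In CKO on NOX_6_18 the median of all genes was 0.31, but 1.41 with library totals only and 0.03 when recentred, and the 8895 higher and 4837 lower calls became 17795 and 1506 with library totals and 7480 and 7336 when recentred.

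Across the 8 libraries of a tissue, the genes whose log2 level was most like that of Hsph1 differed between the tissues. Among 12564 genes with a mean of at least 5 CPM in WAT they were led by Pcx (Pearson r = 0.991 over 8 libraries), Zfp451, Lhcgr, Kif11 and Apcdd1. Among 9846 in liver they were led by Plxnc1 (r = 0.999), Klf15, P4ha1, Mbd1 and Ttc36, with Fkbp5 the sixth. The libraries of fl/fl mice on vehicle lay together at 1 end of the Hsph1 levels in each tissue, and no test was made.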

How the data were processed

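RNA sequencing libraries of WAT and liver were deposited as 1 table of counts per library; the authors made the counts with HISAT and featureCounts 1.5.0 on GRCm38 and listed DESeq 1.8.3, per the submitters' processing notes. The annotation, the strand setting and the handling of multiply mapped reads are, in the sources used here, not given. Ensembl identifiers were matched to symbols in GENCODE M21 (55240 of 55421), and no 2 libraries held identical counts. The counts were fitted with edgeR 4.0.16 (R 4.3.3, limma 3.58.1): TMM scaling, filterByExpr, the 4 groups of a tissue in 1 quasi-likelihood fit of 8 libraries (all 16 for WAT against liver), Benjamini-Hochberg adjustment over all genes fitted, and a threshold of 0.05. Standard errors were computed back from the F statistic, and the procedure was tested on simulated data. DESeq2 1.42.0, limma-voom, other scalings, filters and sets of libraries were alternatives. The 10 genes and all lists were chosen with earlier results of these data known. From each list up to 4 called genes with the smallest adjusted p were named, or up to 2 with the highest CPM where none was called; marker genes and a few others were named beside them.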

Additional observations from a re-analysis of the deposited data

Results flagged for a closer look

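In WAT the NOX_6_18 effect in CKO mice differed from that in fl/fl mice, by the interaction test, for 5 genes: by -0.67 for Hspa1a, -0.93 for Hspa1b, -0.31 for Hsph1, -0.72 for Hsp90aa1 and -0.43 for Dnajb1 on the log2 scale. In liver it differed for 7: by 0.83 for Hspa1a, 0.92 for Hspa1b, -1.17 for Hsph1, -0.62 for Hsp90aa1, -0.50 for Hsp90ab1, -0.84 for Dnajb1 and -0.73 for Hspd1. Both sets rest on the level of the fl/fl vehicle libraries, of which there are 2 in each tissue. Over all genes the interaction was called for 25.3% in WAT and 2.45% in liver. The calls of Hsph1 in WAT, Dnajb1 in both tissues and Hsp90aa1 in liver depended on single libraries.

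The WAT effect of NOX_6_18 in fl/fl mice differed from the liver effect by 1.39 for Hspa1a, 1.78 for Hspa1b, -0.80 for Hsph1, -0.68 for Hspa8, -0.52 for Hsp90ab1, -0.74 for Hspd1 and -0.67 for Hspe1. For CKO over fl/fl mice on vehicle the WAT effect differed from the liver effect by 1.5 for Hspa1a, 1.86 for Hspa1b, -0.85 for Hsph1, -0.60 for Hspa8, -0.44 for Hsp90ab1, -0.70 for Hspd1 and -0.78 for Hspe1. Each was a test of the difference itself. Over all genes 14.7% differed with NOX_6_18 and 14.2% for CKO on vehicle. The calls of Hspe1 in both comparisons and of Hspa8 for CKO on vehicle depended on single libraries.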

How the results depend on the processing

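With 2 libraries a group, calls near the threshold depended on single libraries and on scaling; the cause was not tested unless stated. Members called with NOX_6_18 in fl/fl WAT numbered 8 when recentred, against 5. Over all genes 37.8% were called there in the main fit, and more when recentred. The WAT interaction gave 3 members when recentred, against 5 (25.3% of all genes). The liver test over 4 groups gave 8 (4.04% of all genes). The members called in the WAT interaction and in that liver test also changed without single libraries. With the replicate number as a block, genes called in WAT numbered 2 with NOX_6_18 in CKO (4 without the block) and 5 for CKO on NOX_6_18 (9). Hsph1 lost its WAT interaction call (-0.31, adjusted p = 0.0666), and no other call of a member changed. Within a tissue, same-numbered libraries of different groups did not deviate together (correlations of -0.011 to 0.025 in WAT and -0.027 to 0.006 in liver). Whether same-numbered WAT and liver libraries of a group came from the same mouse was not examined.

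Genes called, against the main counts of 4, 9 and 6 in WAT (NOX_6_18 in CKO, CKO on NOX_6_18, and among the 3 groups), numbered 46, 46 and 65 with DESeq2, 9 and 17 (for NOX_6_18 in CKO and among the 3 groups) with only the groups compared, 13 (among the 3 groups) with no filter and 13 with limma-voom, and 3 to 13, 5 to 23 and 8 to 16 without single libraries. In liver, against 7, 7 and 10, they numbered 35, 42 and 63 with DESeq2, 15, 20 and 25 with no filter, 24 and 16 (for CKO on NOX_6_18 and among the 3 groups) with only the groups compared, and 15 to 28, 13 to 22 and 17 to 33 without single libraries. Without single libraries the liver counts were 615 to 623 with NOX_6_18 in fl/fl mice (1077), 612 to 649 for CKO on vehicle (1131), 288 to 344 for the interaction (478; 829 with DESeq2) and 356 to 670 over 4 groups (789; 1493 with DESeq2). The tissue differences gave 6110 and 5952 genes when recentred, 6518 and 6528 with limma-voom and 6103 and 5942 with DESeq2, against 3933 with NOX_6_18 and 3796 for CKO.

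Some members changed sign, those in WAT against liver after being called. In WAT with NOX_6_18, Hspa8 was -0.10 when recentred (-0.094 to 0.17 without single libraries), and Hsp90ab1 and Hspd1 were 0.11 and 0.058 with library totals. For CKO on vehicle in WAT, Hspa8 and Hsp90ab1 were both -0.11 when recentred (-0.043 to 0.071 and -0.025 to 0.054 without single libraries), and Hspd1 and Hspe1 were 0.12 and 0.0080 with library totals; in liver Hspb1 was -0.075 to 0.19. In WAT against liver with library totals, Hspa1b was 0.92, Hsph1 0.20, Hspa8 0.67, Hsp90ab1 0.84 and Hspd1 0.71 in CKO on NOX_6_18; Hsph1 was 0.15, Hsp90ab1 0.88, Hspd1 0.64 and Hspe1 0.62 in CKO on vehicle, where Hspa1a was -0.10 when recentred; and Hspa1b was 0.92, Hsph1 0.21, Hsp90ab1 0.80, Hspd1 0.60 and Hspe1 0.74 in fl/fl on NOX_6_18.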

Other observations

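Marker lists of cell types that the report does not describe also differed between the fl/fl vehicle libraries of WAT and the other 6. Of all WAT genes, 24.6% were called higher and 13.2% lower with NOX_6_18, and 24.4% and 12.4% for CKO on vehicle. The 10 epididymal and other epithelial markers summed to 1133 to 1231 CPM in the other 6 WAT libraries, against 428 and 472 in fl/fl on vehicle, and 10 of 10 were called higher in both comparisons. The 10 Leydig and Sertoli cell markers summed to 281 to 332 CPM, against 40.3 and 45.3 (7 higher in both), and Rhox5 was at 0 in fl/fl on vehicle. The 12 hepatocyte markers summed to 66.0 to 72.8 CPM, against 20.7 and 24.1 (9 higher in both). The 10 neutrophil markers summed to 135 to 158 CPM, against 34.1 and 39.2 (6 higher in both), and the 8 erythroid markers to 3276 to 3748, against 1418 and 1657 (6 higher in both). The 9 endothelial markers summed to 1886 to 2001 CPM, against 2622 and 2746 (8 lower with NOX_6_18 in fl/fl mice, 7 for CKO on vehicle).

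The 15 circadian clock genes summed to 1132 to 1280 CPM in WAT, against 1304 and 1379 in fl/fl on vehicle, and to 578 to 623 in liver, against 636 and 646. With NOX_6_18 in fl/fl mice, 2 of the 15 were called higher and 5 lower in WAT, and 1 higher and 3 lower in liver. The shares of all genes were 24.6% higher and 13.2% lower in WAT, and 3.78% and 1.74% in liver. The part of any of these lists in the chaperone differences was not tested.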
